A study of Homo sapiens with 12 samples.

Results

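The insulin-like growth factor (IGF) receptors, their docking proteins and the IGF binding proteins were followed in Ishikawa cells, an established line from endometrial adenocarcinoma. A probe set, a group of short probes that together read a transcript, was taken when the array platform's annotation named 1 of 10 genes: IGF1R, IGF2R, INSR, IRS1, IRS2, IGFBP2, IGFBP3, IGFBP4, IGFBP5 and IGFBP6. This gave 29 of the 54613 probe sets tested on Affymetrix U133 Plus 2.0 arrays, and all 10 of these genes were measured, of 19775 genes in all. The rule used no measured value, but the 10 genes were chosen with earlier results of these data known. IGF1R and INSR had 5 probe sets each, IGFBP5 had 6, IGF2R and IRS1 had 3 each, IRS2 and IGFBP3 had 2 each, and IGFBP2, IGFBP4 and IGFBP6 had 1 each.

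The cells were grown in RPMI medium with fetal bovine serum. They were first transfected for 48 h, with an siRNA specific to GPR54 or with a negative control, and the peptide was then present for 24 h. Metastin-10 is the short form of kisspeptin, and GPR54, gene symbol KISS1R, is its receptor. There were 4 groups. Under the negative control siRNA they are called the control group, which received the control peptide, and the metastin-10 group, which received 10 µM metastin-10. Under the GPR54-specific siRNA they are called the siRNA group (control peptide) and the siRNA plus metastin-10 group (10 µM metastin-10). Each group held 3 arrays that the labels call biological replicates, and every group shared the 1 cell line, the transfection and a peptide. The series' text gives the purpose as finding what metastin-10 changes and whether the changes pass through its receptor.

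IGF1 and IGF2 are secreted ligands. IGF1R is a receptor tyrosine kinase that they activate, and INSR, the insulin receptor, is its close relative. Both phosphorylate IRS1 and IRS2, which dock the kinase PI3K, and AKT, a kinase that acts after PI3K, holds FOXO transcription factors out of the nucleus. IGF2R carries IGF2 to lysosomes and is also the receptor for mannose-6-phosphate tags. The IGFBPs bind IGFs outside the cell, keeping them from their receptors or prolonging their life, and proteases release the ligand again. In the endometrium the IGF system is known for its part in oestrogen-driven growth and in decidualization.

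Values are log2 levels made with RMA, so a difference of 1 is a doubling. Levels of different probe sets are set side by side only as a rough guide, as in the marker lists and the choice of a brightest probe set. The array medians lay between 5.13 and 5.22 and the correlations between arrays between 0.992 and 0.998. The 10 epithelial markers had a median level of 11.5 (KRT18 14.0, MUC1 7.81). The stromal, endothelial and leukocyte lists had medians of 4.82, 4.62 and 4.19, with COL1A1 at 9.84 the highest among them. KISS1R, the targeted gene, read 9.39, 9.32 and 9.14 in the control group and 9.46, 9.45 and 9.36 in the siRNA group. It was thus not lower under the siRNA that targets it (log2 difference 0.14, SE 0.0977, limma adjusted p = 1), so both siRNA groups are named below by their labels alone, and every direction drawn from them carries that limit. It read 8.43, 8.42 and 8.35 in the metastin-10 group, where it fell by 0.88 (limma adjusted p = 0.00213). In the siRNA plus metastin-10 group it read 9.60, 9.42 and 9.28. With metastin-10 it was thus higher under the siRNA that targets it. That difference was called in each of the 12 fits that left out 1 array (0.95 to 1.11, limma adjusted p 0.000455 to 0.00407). Replicates 1 and 2 of the metastin-10 group also stood apart from the other 10 arrays on the second principal component of all tested probe sets (0.665 and 0.463 against -0.302 to 0.172), which held 21.4% of the variance. In RNA from a whole culture, fewer cells that express a gene and less RNA per cell cannot be told apart.

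IGFBP5 is the member the results turn on, so its promoter is shown first, from RefSeq on GRCh38.p14. The stretch is chr2:216695550-216695799 on the minus strand, the 250 bases before the annotated start of the gene, with a GC content of 61.2%. The capitals mark TATTTAA, which resembles a TATA box, starts 31 bases before the start site and was picked after the sequence had been seen.
IGFBP5 promoter: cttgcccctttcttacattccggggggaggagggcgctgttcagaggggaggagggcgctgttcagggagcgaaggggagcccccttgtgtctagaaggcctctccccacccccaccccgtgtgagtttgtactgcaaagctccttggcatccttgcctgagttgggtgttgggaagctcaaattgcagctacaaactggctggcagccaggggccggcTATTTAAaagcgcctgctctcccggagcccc
The run TATTTAA, read on the gene's own strand, stands in 2.43% of the 35116 RefSeq promoters of 300 bases (250 before to 50 after the start). The hypoxia element core ACGTG and the FOXO motif GTAAACA, each searched on both strands, are not in these letters of IGFBP5. The 10 members matched 12 promoters. ACGTG stood in those of IGF1R (1 match), IGF2R (6), IRS1 (2) and IGFBP2 (1 match, in 1 of its 3 promoters), against 21.4% of all promoters. GTAAACA stood in that of IGFBP6 alone among the members, against 3.42% of all promoters. In the RefSeq gene table IGFBP2 and IGFBP5 are next to each other on chromosome 2, on opposite strands, as are IGFBP1 and IGFBP3 on chromosome 7.

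**Figure D1:**
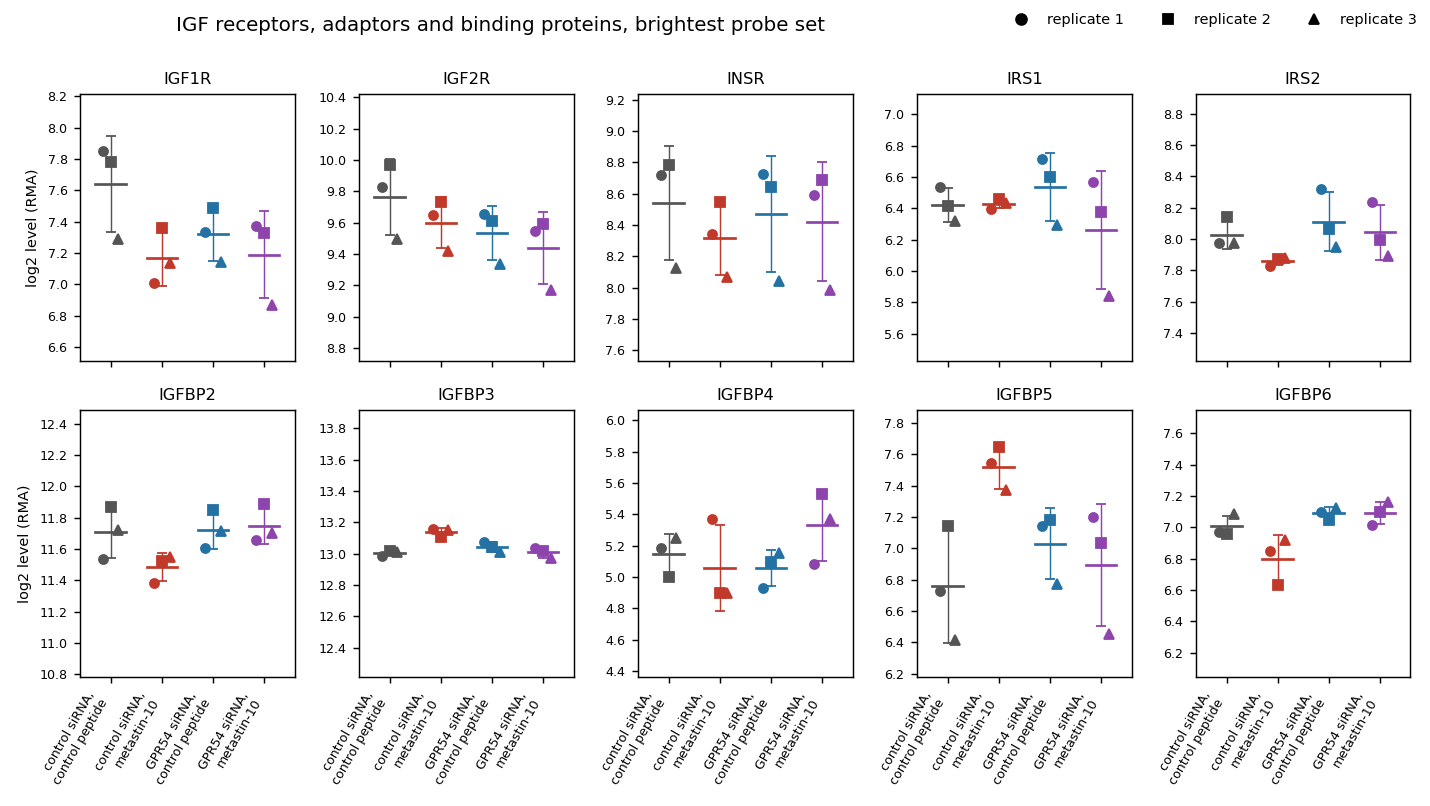
Log2 level of the brightest probe set of each of the 10 members on each of the 12 arrays, by group, with a line at each group mean and an error bar of 1 SD over 3 arrays. IGFBP5 reads 7.37 to 7.65 in the metastin-10 group and 6.41 to 7.20 in the other 3 groups.

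The first comparison set the metastin-10 group against the control group, which asks what the peptide changes in cells with the negative control siRNA. IGFBP5, a binding protein that also sticks to extracellular matrix, was the only member with a probe set past the threshold: 1 of the 29 rose, against 0.428% of all probe sets called in either direction and 0.0421% called higher. With each gene represented by its brightest probe set, 0 of the 10 members were called, against 0.607% of all genes. At an unadjusted p under 0.05 there were 3 members (IGFBP5, IGF1R and IGFBP6), against 11.9% of all genes, and 5 of 29 member probe sets, against 10.6% of all. The 29 probe sets had 14 differences above 0 and 15 below, with a median of -0.03 (0.01 over all probe sets). Their median absolute difference was 0.16, against 0.103 over all probe sets. Values of the cell type markers in the same comparison stand beside these. Of the 10 epithelial markers 9 differences lay below 0 (median -0.20), and KRT19, a keratin, was called (-0.48, limma adjusted p = 0.009). The mean level of that list was 11.23 to 11.35 on the control arrays and 11.04 to 11.15 on the metastin-10 arrays. Of the stromal, endothelial and leukocyte markers 6 of 8, 4 of 4 and 3 of 3 differences lay above 0, and 0 were called. Their part in the results was not tested.

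The IGFBP5 probe set that rose, 1555997_s_at, read 4.25, 4.38 and 4.13 in the control group and 4.72, 5.07 and 5.12 in the metastin-10 group. The groups did not overlap. It read 4.75, 4.51 and 4.69 in the siRNA group and 4.66, 4.73 and 4.48 in the siRNA plus metastin-10 group, all above the 3 control arrays. The means were 4.25 ± 0.125 and 4.97 ± 0.22 (SD, n = 3), a log2 difference of 0.72 (SE 0.121, 95% interval 0.46 to 0.98, limma adjusted p = 0.0232) or 1.65-fold. Its level is low on this array, and the background level is unknown here.

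The call of 1555997_s_at rested on single arrays of both groups. Without replicate 2 or 3 of the metastin-10 group the limma adjusted p was 0.112 and 0.0667, and without replicate 1, 2 or 3 of the control group it was 0.107, 0.0638 and 0.0851, with differences of 0.64 to 0.78. With the metastin-10 group represented by its replicate 3 array alone, a choice made after the data had been seen, the difference was 0.87. A group of 1 array takes its spread from the other groups, so only its difference is read here.

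The brightest IGFBP5 probe set, 211959_at, read 6.73, 7.14 and 6.41 in the control group and 7.55, 7.65 and 7.37 in the metastin-10 group. All 3 metastin-10 arrays lay above all 3 control arrays. The means were 6.76 ± 0.367 and 7.52 ± 0.14 (SD, n = 3), a log2 difference of 0.76 (SE 0.206, 95% interval 0.32 to 1.21) or 1.7-fold, with a limma adjusted p of 0.18. In this comparison the same-numbered arrays deviated together, and with the replicate number as a block the SE was 0.119 and the limma adjusted p was 0.0215. The block raised the count of all probe sets called from 234 to 422 (0.773%) and the count of members called from 0 to 1 by brightest probe set and from 1 to 2 by probe set. Within same-numbered arrays the difference was 0.82, 0.50 and 0.96. Without the replicate 3 arrays it was 0.66 (adjusted p = 0.0849), and with the metastin-10 group as its replicate 3 array alone it was 0.61.

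The other 4 IGFBP5 probe sets did not pass. The probe set 211958_at read 5.37, 5.67 and 5.41 in the control group and 5.73, 5.91 and 5.71 in the metastin-10 group, which do not overlap (log2 difference 0.30, limma adjusted p = 0.534). The differences of 203425_s_at, 203426_s_at and 203424_s_at were 0.21, 0.16 and 0.04, with overlapping groups. Over the 12 arrays, which share their groups and replicate numbers, Pearson's r with 211959_at was 0.865 for 211958_at, 0.742 for 1555997_s_at, 0.249 for 203426_s_at, 0.178 for 203425_s_at and -0.359 for 203424_s_at. Some probe sets of this gene therefore moved with 211959_at and some did not, but the split was not clean. The r of 1555997_s_at was 0.55 with 203425_s_at and 0.533 with 211958_at. Taken as the mean of its 6 probe sets, IGFBP5 differed by 0.36 (adjusted p = 0.0622).

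**Figure D2:**
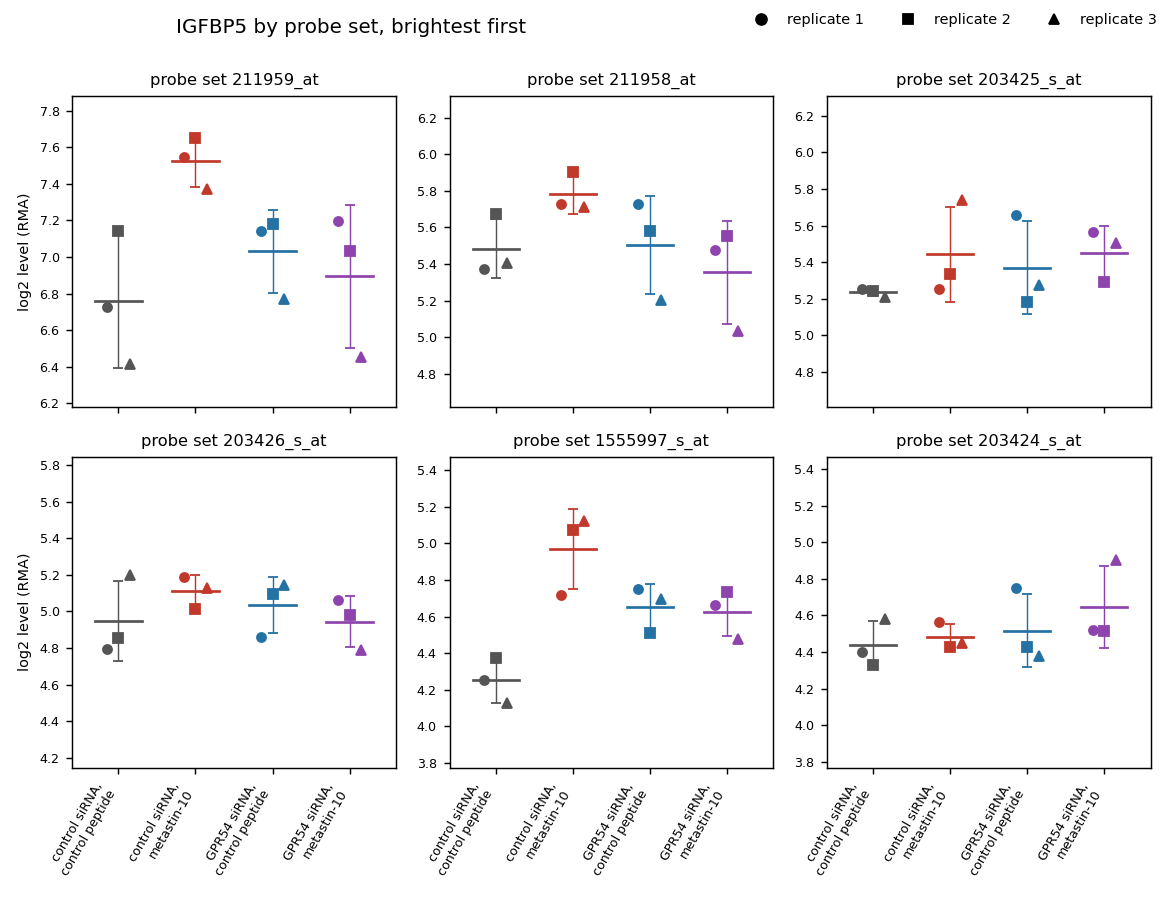
Log2 level of each of the 6 IGFBP5 probe sets on each of the 12 arrays, by group, with a line at each group mean and an error bar of 1 SD. In 211959_at, 211958_at and 1555997_s_at every array of the metastin-10 group lies above every array of the control group. In the other 3 those groups overlap.

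The other binding proteins did not pass the test. IGFBP3, the main IGF carrier of blood plasma, read 12.99, 13.02 and 13.01 in the control group and 13.16, 13.11 and 13.15 in the metastin-10 group on 210095_s_at. Its groups were apart on both probe sets, by 0.14 (95% interval -0.01 to 0.28, limma adjusted p = 0.515) and by 0.17 on 212143_s_at (-0.01 to 0.35, adjusted p = 0.504). The replicate block gave intervals of -0.005 to 0.28 and 0.02 to 0.31 (limma adjusted p = 0.375 and 0.302). The spread of 210095_s_at within groups was small (SD 0.0276, lower than in all but 0.251% of probe sets), and limma, which shares the spread between probe sets, gave the difference an SE of 0.0691.

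IGFBP2, a secreted binding protein with a preference for IGF2, read 11.54, 11.87 and 11.72 in the control group and 11.38, 11.52 and 11.55 in the metastin-10 group, with a small overlap. Its log2 difference was -0.22 (95% interval -0.45 to 0.01, limma adjusted p = 0.484). With the replicate block the interval was -0.38 to -0.07 (limma adjusted p = 0.205). IGFBP6, which prefers IGF2 over IGF1, read 6.97, 6.96 and 7.08 in the control group and 6.85, 6.63 and 6.92 in the metastin-10 group. Those groups did not overlap, and the difference was -0.20 (95% interval -0.40 to -0.01, adjusted p = 0.451). IGFBP4, a binding protein that mostly inhibits IGF action, read 5.18, 5.00 and 5.25 in the control group and 5.37, 4.90 and 4.89 in the metastin-10 group, a difference of -0.09 (adjusted p = 0.872). Its metastin-10 arrays spanned its control arrays.

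Among the receptors, IGF1R on its brightest probe set 225330_at read 7.85, 7.78 and 7.29 in the control group and 7.01, 7.36 and 7.14 in the metastin-10 group. Both groups overlapped through the control replicate 3 array. The log2 difference was -0.48 (SE 0.17, 95% interval -0.84 to -0.11, limma adjusted p = 0.34), and -0.85, -0.43 and -0.15 within same-numbered arrays. With the replicate block its SE was 0.118 (limma adjusted p = 0.116). A second IGF1R probe set, 243358_at, read 5.24, 5.07 and 5.61 against 4.49, 5.02 and 5.00, which do not overlap (-0.47, adjusted p = 0.326). The other IGF1R probe sets differed by 0.00 (203627_at), -0.06 (203628_at) and 0.24 (208441_at), so the 5 probe sets of IGF1R disagreed in sign.

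IGF2R on 201393_s_at read 9.83, 9.97 and 9.50 in the control group and 9.65, 9.73 and 9.42 in the metastin-10 group, a difference of -0.16 (95% interval -0.48 to 0.16, limma adjusted p = 0.739). The interval of IGF2R with the replicate block was -0.32 to -0.01 (limma adjusted p = 0.34). Its other probe sets differed by 0.08 and 0.02. INSR on 213792_s_at read 8.72, 8.78 and 8.12 in the control group and 8.34, 8.54 and 8.07 in the metastin-10 group, a difference of -0.22 (95% interval -0.73 to 0.28, adjusted p = 0.775). The interval of INSR with the replicate block was -0.41 to -0.03 (limma adjusted p = 0.292). Its other 4 probe sets lay between -0.19 and -0.03. In both groups the replicate 3 array of INSR was the lowest.

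Of the docking proteins, IRS2 on 209185_s_at read 7.97, 8.14 and 7.97 in the control group and 7.83, 7.88 and 7.88 in the metastin-10 group. The groups did not overlap, by a difference of -0.17 (95% interval -0.41 to 0.08, limma adjusted p = 0.631). IRS1 on 204686_at read 6.53, 6.41 and 6.32 against 6.40, 6.46 and 6.43, a difference of 0.01 (95% interval -0.34 to 0.35, adjusted p = 0.992). By gene, then, 2 members were apart and higher (IGFBP3 and IGFBP5) and 2 apart and lower (IRS2 and IGFBP6), where 8.72% and 10.9% of all genes were so. By probe set, 5 of 29 were apart and higher, where 7.91% of all were, and 3 of 29 apart and lower, where 8.72% were.

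**Figure D3:**
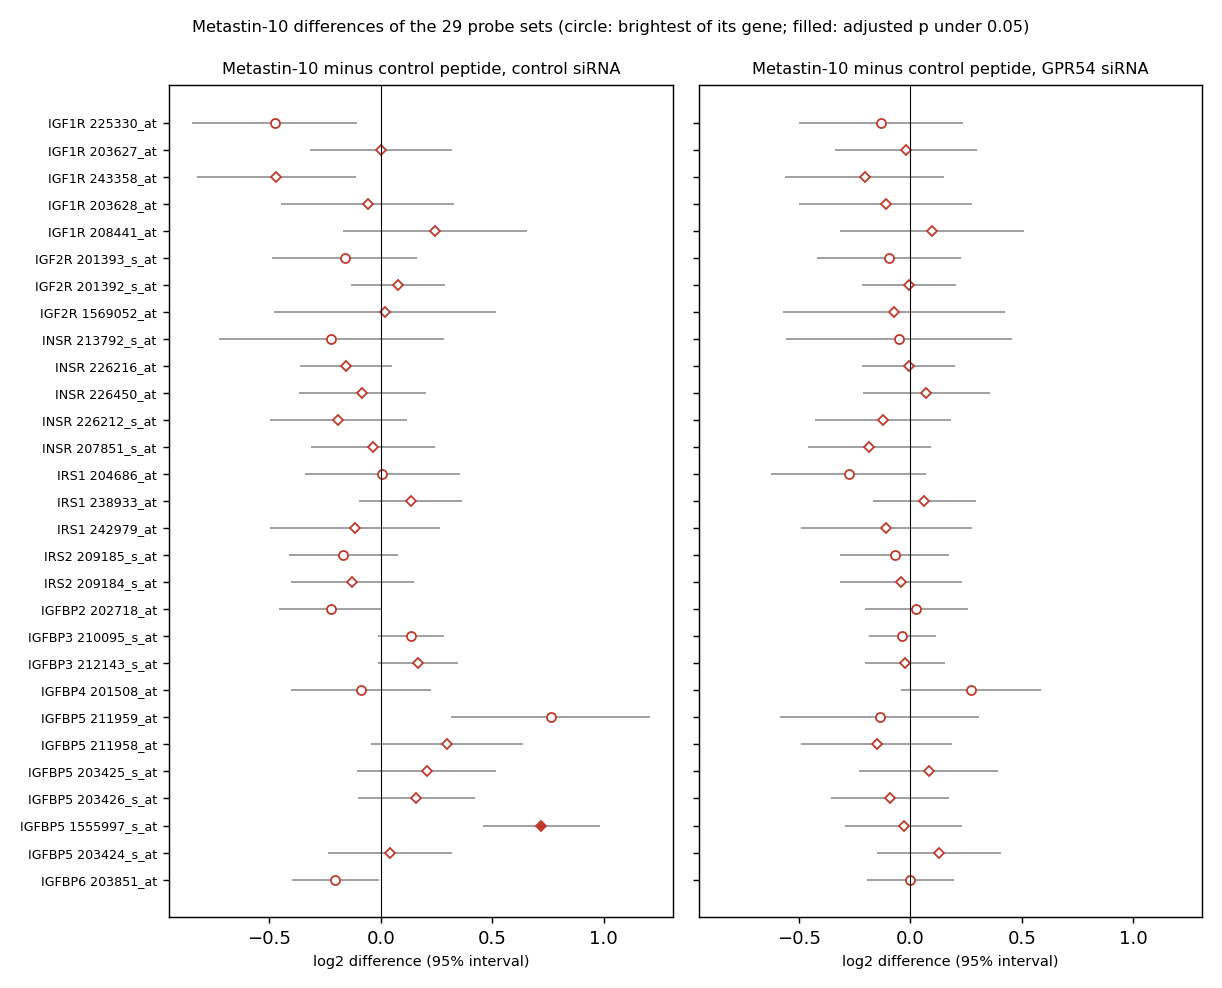
Log2 difference of metastin-10 minus control peptide for each of the 29 member probe sets, with its 95% interval from limma, under the negative control siRNA on the left and the GPR54 siRNA on the right. Circles mark the brightest probe set of a gene and filled points an adjusted p under 0.05, and IGFBP5 on 211959_at is at 0.76 (0.32 to 1.21) and -0.14 (-0.58 to 0.31).

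The siRNA plus metastin-10 group against the siRNA group called 0 members and 0% of all probe sets by limma. At an unadjusted p under 0.05 there were 0 of 29 member probe sets, against 2.21% of all. IGFBP5 read 7.14, 7.18 and 6.77 in the siRNA group and 7.20, 7.03 and 6.45 in the siRNA plus metastin-10 group on 211959_at, a difference of -0.14 (95% interval -0.58 to 0.31, limma adjusted p = 1). On 1555997_s_at the difference was -0.03 (-0.29 to 0.23). The IGFBP5 values of these groups overlapped on both probe sets.

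Other members differed there by -0.28 (IRS1) to 0.27 (IGFBP4). IGFBP4 read 4.93, 5.09 and 5.15 in the siRNA group and 5.08, 5.53 and 5.37 in the siRNA plus metastin-10 group, which overlap. IRS1 read 6.71, 6.60 and 6.30 against 6.57, 6.38 and 5.84, with its lowest value in the replicate 3 array given metastin-10. The 95% interval of IRS1 was -0.62 to 0.07, and -0.55 to -0.005 with the replicate block, where it was not called either. The median absolute difference over the 29 probe sets was 0.0827, against 0.0611 for the whole array. In the main fit, which has no replicate block, the unadjusted 95% interval of a member probe set reached 0.305 to either side at the median. Smaller differences than that were mostly not detectable in that fit with 3 arrays a group. Calls use the adjusted p, so larger differences could be missed too. IGF1R on 225330_at, at -0.48 in the first comparison, was not called (limma adjusted p = 0.34).

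The interaction, the metastin-10 difference between both siRNA groups minus that between the metastin-10 and control groups, called 0 members, against 0.0513% of all probe sets. At an unadjusted p under 0.05 there were 2 of 29 member probe sets, both of IGFBP5, against 6.09% of all. IGFBP5 had an interaction of -0.90 on 211959_at (SE 0.291, 95% interval -1.53 to -0.27, limma adjusted p = 0.585) and of -0.75 on 1555997_s_at (SE 0.171, -1.12 to -0.38, adjusted p = 0.238). The interval of both lay below 0, but neither passed after adjustment over all probe sets. The next members were IGFBP4 at 0.36 (adjusted p = 0.896) and IGF1R at 0.34 (adjusted p = 0.93).

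The siRNA group against the control group called 0 of 29 member probe sets, against 0.0531% of all. It shares the control arrays with the first comparison. At an unadjusted p under 0.05 there was 1 member probe set, against 4.25% of all: IGFBP5 on 1555997_s_at, by 0.40 (95% interval 0.14 to 0.66, limma adjusted p = 0.679). It was also the 1 probe set whose groups were apart and higher, where 5.2% of all were. On the brightest probe set of IGFBP5 the difference was 0.27, with overlapping groups. IGF1R differed by -0.32 (95% interval -0.69 to 0.05, adjusted p = 1), from 7.85, 7.78 and 7.29 to 7.33, 7.48 and 7.14. With the replicate block its interval was -0.58 to -0.06 (limma adjusted p = 0.706). IGF2R on 201393_s_at differed by -0.23 (-0.55 to 0.09), and its interval with the block was -0.38 to -0.07 (limma adjusted p = 0.532).

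The siRNA plus metastin-10 group against the metastin-10 group shares the metastin-10 arrays with the first comparison, with the opposite sign. It called 0 of 29 member probe sets, against 0.579% of all, and 5 had an unadjusted p under 0.05, against 10.1% of all. IGFBP5 read 7.55, 7.65 and 7.37 in the metastin-10 group and 7.20, 7.03 and 6.45 in the siRNA plus metastin-10 group on 211959_at, which do not overlap. Its difference was -0.63 (SE 0.206, 95% interval -1.07 to -0.18, limma adjusted p = 0.299). With the replicate number as a block it was called (SE 0.119, adjusted p = 0.0424), although the same-numbered arrays of this comparison did not all deviate together. It was -0.35 on 1555997_s_at (adjusted p = 0.335) and -0.43 on 211958_at (adjusted p = 0.36). IGFBP6 read 6.85, 6.63 and 6.92 against 7.01, 7.10 and 7.16, also apart, by 0.29 (0.10 to 0.49, adjusted p = 0.263).

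IGFBP2 in the same comparison read 11.38, 11.52 and 11.55 against 11.66, 11.88 and 11.70, apart by 0.26 (95% interval 0.03 to 0.49, limma adjusted p = 0.42). IRS2 was apart by 0.18 (adjusted p = 0.641) and IGFBP3 by -0.13 (adjusted p = 0.567). Thus 3 members were apart and higher and 2 apart and lower, where 11.2% and 6.35% of all genes were. IGF1R differed by 0.02 (95% interval -0.35 to 0.39) and INSR by 0.10 (-0.40 to 0.61).

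Ordered by group mean, IGFBP5 on 211959_at ran from the control group (6.76 ± 0.367) through the siRNA plus metastin-10 group (6.89 ± 0.392) and the siRNA group (7.03 ± 0.225) to the metastin-10 group (7.52 ± 0.14; SD, n = 3). The first 3 of these overlapped. IGF1R on 225330_at ran from the control group (7.64 ± 0.308) through the siRNA group (7.32 ± 0.171) and the siRNA plus metastin-10 group (7.19 ± 0.277) to the metastin-10 group (7.17 ± 0.177), and neighbours overlapped. IGFBP6 was lowest in the metastin-10 group (6.80 ± 0.151), and the other 9 arrays lay between 6.96 and 7.16.

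**Figure D4:**
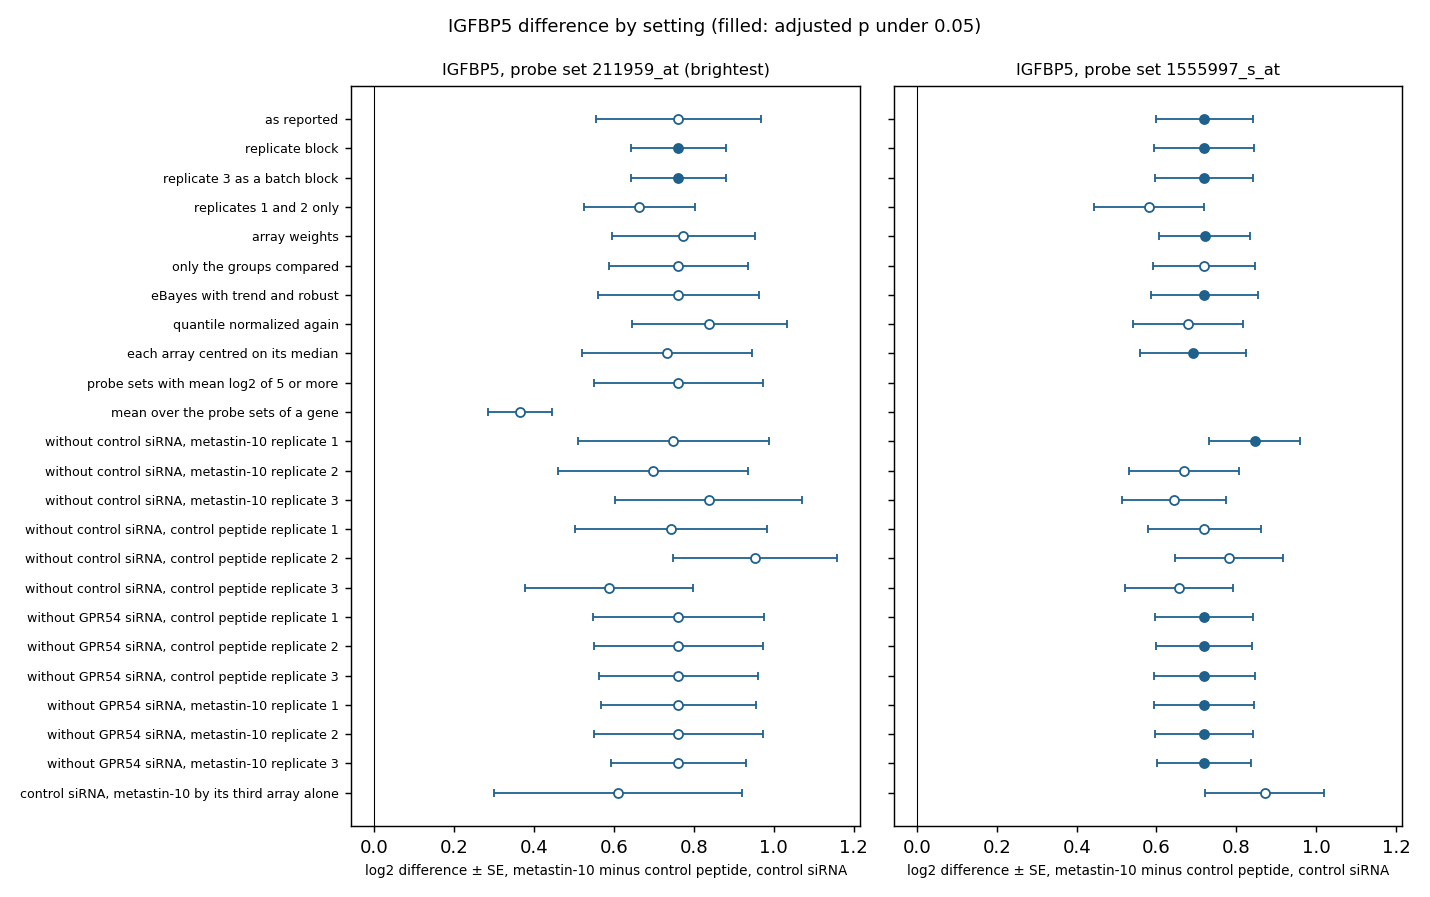
Log2 difference of IGFBP5 (metastin-10 group minus control group) on 211959_at and 1555997_s_at as reported and under each alternative setting, with error bars of 1 SE. Filled points have an adjusted p under 0.05, and the difference lies above 0 in each setting drawn while the side of the threshold changes between them.

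On several probe sets of the receptors the arrays differed by replicate number. In 8 of the 29 member probe sets the replicate 3 array was the lowest in all 4 groups, where 7.95% of all probe sets were so, and 1 was the highest in all 4, where 6.62% were. The level in replicate 3 minus the mean of replicates 1 and 2 was -0.57 for INSR on 213792_s_at, -0.45 for IGFBP5 on 211959_at, -0.34 for IGF2R on 201393_s_at and -0.30 for IGF1R on 203627_at. The probe set that was highest in replicate 3 of every group was that of IGFBP6, by 0.11. The 3′ minus 5′ log2 level of the beta-actin control probe sets, a measure of RNA integrity and labelling, was 0.773 and 0.719 in replicates 1 and 2 and 0.313 in replicate 3 (SD 0.0869, 0.0538 and 0.0353, n = 4). Its means by group lay between 0.578 and 0.652, and its part in the member values was not tested.

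The rest of the pathway was taken as 5 lists with 79 entries, of which 74 were measured. The lists were chosen with earlier results of these data known. Their counts, set beside the share of all genes, are therefore descriptive and cannot serve as a test of the lists. The metastin-10 group against the control group called 1 of 7 measured IGF ligands and other binding proteins, where 0.607% of all genes were called. It was IGFBP7, which binds IGFs weakly and insulin. IGFBP7 had a mean of 9.08 ± 0.142 in the control group and 8.49 ± 0.129 in the metastin-10 group (SD, n = 3) and fell by 0.60 (SE 0.112, limma adjusted p = 0.042). With the replicate block its adjusted p was 0.0536, and its other probe sets differed by -0.27 and 0.04. Without replicate 1, 2 or 3 of the metastin-10 group its adjusted p was 0.21, 0.133 and 0.0534, and without replicate 1 or 2 of the control group it was 0.181 and 0.207. Without replicate 2 of the siRNA group or of the siRNA plus metastin-10 group it was 0.0743 and 0.0736. IGFBP7 thus lost its call in 7 of the 12 fits. It was also not called with only the groups compared (0.122) or as the mean of its probe sets (-0.27, limma adjusted p = 0.107). IGFBP1, the binding protein of decidual stroma, was apart and higher by 0.37 (adjusted p = 0.166), and IGF1 differed by 0.04. IGF2 was not analysed here. The list's median was 0.04, against 0.01 over all genes.

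Of the 10 IGFBP proteases and their inhibitors, 2 fell, where 0.607% of all genes were called: STC1 and STC2, the stanniocalcins, secreted proteins that inhibit the IGFBP proteases PAPPA and PAPPA2. STC1 went from 10.63 ± 0.0313 to 10.03 ± 0.0509 (SD, n = 3), a fall by 0.60 (SE 0.0736, limma adjusted p = 0.00331). STC2 went from 8.38 ± 0.101 to 7.61 ± 0.128, a fall by 0.77 (SE 0.107, adjusted p = 0.00681), and without replicate 2 of the control group its adjusted p was 0.051. PAPPA itself differed by 0.08 (adjusted p = 0.768), PAPPA2 by 0.19 (adjusted p = 0.735) and HTRA1, another IGFBP protease, by -0.09 (adjusted p = 0.814). PRSS23, a serine protease, differed by 0.35 (adjusted p = 0.0768) and was called with the replicate block. The list's median was 0.12.

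Of the 17 receptor adaptors and feedback genes 0 were called, where 0.607% of all genes were. An unadjusted p under 0.05 was reached by 2 of the 17, against 11.9% of all genes. They were IGF2BP1, an RNA-binding protein named for IGF2 mRNA, at 0.34 (adjusted p = 0.337), and GAB1, a docking protein, at -0.22 (adjusted p = 0.375). Of the 22 measured genes of the PI3K, AKT and mTOR chain 0 were called, against the same 0.607%. In this list 16 differences lay below 0, with a median of -0.09 against 0.01 over all genes. An unadjusted p under 0.05 was reached by 1 gene, against the same 11.9%. That gene was FOXO3, one of the FOXO transcription factors, at -0.37 (limma adjusted p = 0.274), and FOXO4 was at -0.20.

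Of the 18 FOXO target genes, 3 fell, where 0.607% of all genes were called, and 18 of 18 differences lay below 0, with a median of -0.29 against 0.01 over all genes. The epithelial markers, with 9 of 10 differences below 0 and a median of -0.20, lay below 0 in the same arrays. DDIT4, an inhibitor of mTORC1 that hypoxia also induces, went from 12.13 ± 0.0801 to 11.26 ± 0.0475 (SD, n = 3), a fall by 0.87 (SE 0.0746, limma adjusted p = 0.000319). BCL6, a transcriptional repressor, fell by 0.66 (SE 0.0882, adjusted p = 0.00611), and its other probe sets differed by -0.24 and 0.16. TXNIP, which restrains thioredoxin and glucose uptake, fell by 0.50 (SE 0.0769, adjusted p = 0.0134). TXNIP was not called without replicate 2 of the metastin-10 group (adjusted p = 0.0528) or without replicate 1 or 2 of the control group (0.0856 and 0.0842). In 10 of the 18 the groups were apart and lower, where 10.9% of all genes were.

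The list's called genes are also known outside the IGF pathway. The hypoxia genes ADM and VEGFA, named for comparison, fell in the same arrays by 1.41 and 0.74 (limma adjusted p = 0.000154 and 0.00943). Whether either pathway had a part in these falls was not tested. VEGFA was not called without replicate 1 of the metastin-10 group (adjusted p = 0.06) or without replicate 1 or 2 of the control group (0.0637 and 0.0711). With the metastin-10 group represented by its replicate 3 array alone, 17 of 18 differences of the FOXO list lay below 0 and the median was -0.30.

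The siRNA plus metastin-10 group against the siRNA group called 0 genes of each of the 5 lists, where 0% of all probe sets were called. The median of the FOXO targets was -0.03. The siRNA group against the control group also called 0 genes of each list, where 0.0531% of all probe sets were called. With shares so low, neither count is particular to the lists. The siRNA plus metastin-10 group against the metastin-10 group, which shares the metastin-10 arrays, called 2 higher among the proteases and inhibitors (STC1 at 0.86 and STC2 at 0.85) and 3 higher among the FOXO targets, against 1.04% of all genes. The median of the FOXO targets was 0.27. The 3 were DDIT4, BCL6 and TXNIP, and TXNIP (0.41, limma adjusted p = 0.0337) was not called in 9 of the 12 fits that each left out 1 array (adjusted p 0.0395 to 0.16 over the 12). In the interaction, which called 0.106% of all genes, DDIT4 was called at 0.91 (limma adjusted p = 0.00799) and STC1 at 0.67 (adjusted p = 0.05, just under the threshold). With 1 of the 12 arrays left out, STC1 was called in 0 of the 12 fits (adjusted p 0.0559 to 0.197), and DDIT4 lost its call without replicate 2 of the siRNA plus metastin-10 group (0.0525).

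**Figure D5:**
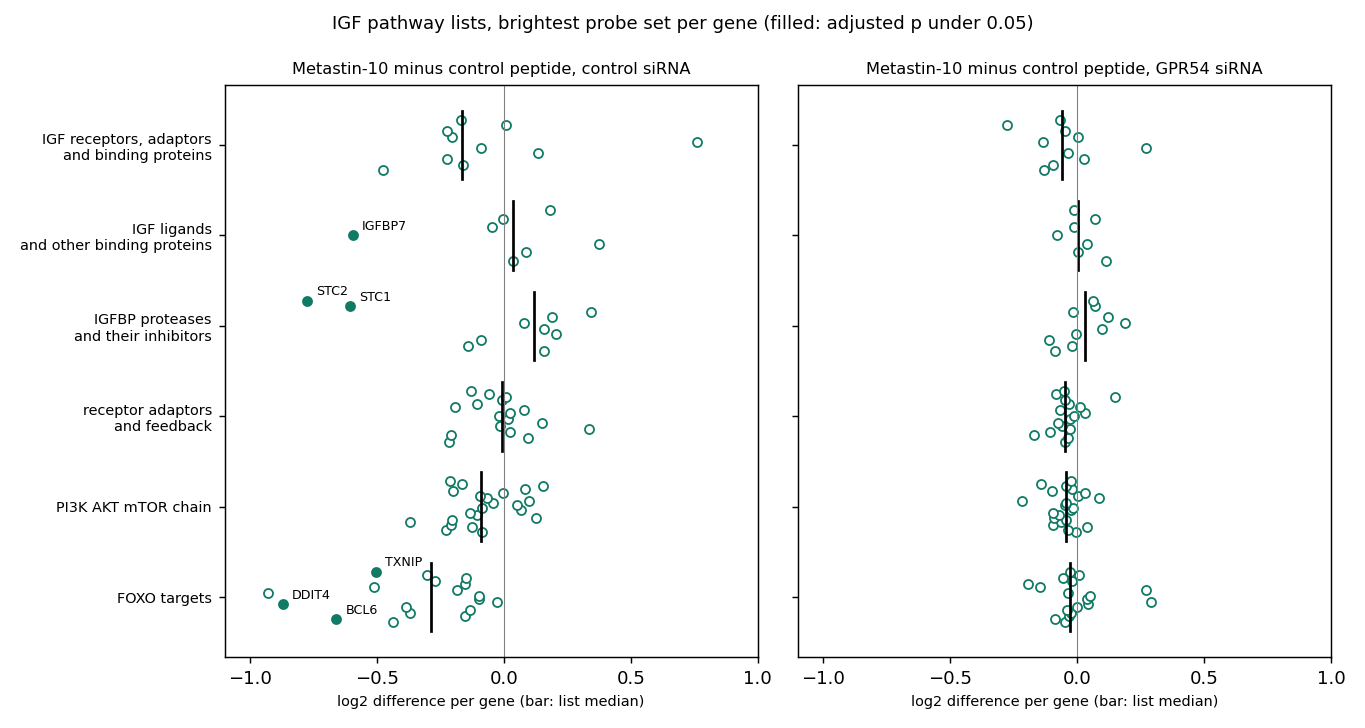
Log2 difference of metastin-10 minus control peptide for each measured gene of the members and of the 5 pathway lists, under the negative control siRNA on the left and the GPR54 siRNA on the right, with a bar at each list's median and filled points for an adjusted p under 0.05. The 18 FOXO targets all lie below 0 on the left (median -0.29) and have a median of -0.03 on the right. The lists were chosen with earlier results of these data known.

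The genes whose pattern over the 12 arrays was most like that of IGFBP5 were found among 13431 genes with a mean level of 5 or more. For 211959_at they were LZTS1 (Pearson's r 0.953), KRT80 (0.952), CHCHD3 (0.938) and PMEPA1 (0.935). For 1555997_s_at they were NRG1 (0.948), TIMM8A (0.915), STK17A (0.898) and EIF4A3 (0.896). The lists for the 2 probe sets of IGFBP5 share no gene. The arrays share groups and replicate numbers, and after the group means were removed r with 211959_at was 0.952 for LZTS1 and 0.956 for KRT80, while r with 1555997_s_at was 0.778 for NRG1 and 0.485 for EIF4A3.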

How the data were processed

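The authors deposited 1 table of log2 values for 12 arrays (4 groups of 3), and the submitters' processing notes name RMA, which subtracts background, gives the arrays a common distribution and combines the probes of a set. A software version is not given in the sources used here. With no background level known, differences of dim probe sets may be understated. The number of arrays limits the precision.

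The 62 control probe sets were left out. The other 54613 entered 1 limma fit (limma 3.58.1, R 4.3.3) with a mean for each of the 4 groups and 8 residual degrees of freedom. The 5 contrasts were the peptide under each siRNA, the siRNA under each peptide and their interaction. Each test was two-sided, with Benjamini-Hochberg adjustment over all 54613 and a threshold of 0.05. A gene's brightest probe set by mean stood for it. The p-values set each difference against the spread within groups, pooled over the 4 groups and shared by limma between probe sets. These arrays share 1 cell line. The code was tested on simulated data.

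The replicate numbers come from the labels. Deviations from the group means of same-numbered arrays correlated by 0.262, 0.174 and 0.437 (peptide, control siRNA), 0.372, 0.261 and 0.521 (peptide, GPR54 siRNA), 0.108, 0.21 and 0.545 (siRNA, control peptide) and -0.148, 0.262 and 0.0665 (siRNA, metastin-10). A minimum of 0.1 for every pair, which the last comparison misses, was taken to pair the arrays. The main fit still had no replicate block, and a value comes from that fit unless the block is named beside it.

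All probe sets of the members are reported. In the 5 pathway lists the genes past the threshold are named, or else the 2 with the smallest p. Further names (PAPPA, PAPPA2, HTRA1, IGF1, IGFBP1, PRSS23) were chosen after their values were seen. Likeness is Pearson's r over 12 arrays, 4 genes per probe set. The members and lists were chosen with earlier results of these data known. There were 23 alternative settings, 22 of them planned.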

Additional observations from a re-analysis of the deposited data

Results flagged for a closer look

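The interaction was past the threshold for 4 genes named here, which is limma's test of whether the metastin-10 difference was the same under the GPR54 siRNA label as under the negative control. Of these calls, that of ADM held in each of the 12 fits that left out 1 array. KISS1R had an interaction of 0.89 (limma adjusted p = 0.05, just under the threshold) and was not called in 11 of the 12 fits (0.0369 to 0.198). ADM had an interaction of 1.52 (adjusted p = 0.00279, and 0.00464 to 0.0212 with 1 array left out, but 0.0925 without the replicate 3 arrays). STC1 had an interaction of 0.67 (adjusted p = 0.05, just under the threshold) and was called in 0 of the 12 fits (0.0559 to 0.197). On its other probe sets the interaction was 0.72 and 0.62 (limma adjusted p = 0.893 and 0.666). DDIT4 had an interaction of 0.91 (adjusted p = 0.00799) and lost its call in 1 of the 12 fits, without replicate 2 of the siRNA plus metastin-10 group (0.0525). Without the replicate 3 arrays KISS1R (0.13), STC1 (0.185) and DDIT4 (0.132) were not called either, and with each array centred on its median KISS1R (0.0718) and STC1 (0.0811) were not. None of the 10 IGF receptor and binding protein genes was past the threshold in the interaction, by limma in any of the alternatives run. The groups held 3 arrays each, so single arrays were not tested as outliers.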

How the results depend on the processing

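The number of members called by their brightest probe set was 0 in the main fit of each contrast and 0 to 0 when each of the 12 arrays was left out in turn. It became 1 with the replicate block, and 1 with a term for the replicate 3 arrays, both for the metastin-10 group against the control group (IGFBP5 higher) and for the siRNA plus metastin-10 group against the metastin-10 group (IGFBP5 lower, limma adjusted p = 0.0424 with the block). In the latter contrast it was also 1 with array weights (IGFBP6 higher). The same-numbered arrays of that contrast did not all deviate together, and the block raised its count of all probe sets called from 316 to 504. The block changed no other member's call. Of the members and the other genes tested under each alternative (KISS1R, ADM, VEGFA, IGFBP7, STC1, STC2, TXNIP, DDIT4 and BCL6), 0 differences past the threshold changed sign. All probe sets called in the first comparison numbered 234 in the main fit, 77 with only the groups compared, 495 with array weights, 397 with trend and robust moderation, 328 without dim probe sets, 532 with the replicate 3 term, 71 to 263 with 1 array left out, and 1 with the metastin-10 group as its replicate 3 array alone, where the spread came from the other groups. For the siRNA plus metastin-10 group against the metastin-10 group the range was 57 (only the groups compared) to 2016 (array weights), and for the siRNA group against the control group 0 (without the replicate 3 arrays) to 130 (array weights). IGFBP5 on 211959_at stayed at 0.59 to 0.95 with 1 array left out (adjusted p 0.0821 to 0.484). IGFBP5 on 1555997_s_at lost its call with only the groups compared (adjusted p = 0.111), without the replicate 3 arrays (0.1) and when the arrays were quantile normalized again (0.0613), and a minimum mean level of 5 removed it. With 3 arrays a group and no background level, small differences and dim probe sets are limited by precision.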
